A study of Mus musculus with 27 samples.

Results

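Lymph node and spleen, both secondary lymphoid organs, were compared directly by setting the 3 lymph node arrays against the 3 spleen arrays, 6 of the 27 arrays of a survey of 9 mouse tissues. The samples of each organ were taken by their tissue labels, which used no measured value. All 573 mouse genes of a custom Affymetrix array for glycogenes were compared. Glycogenes encode enzymes that make or break down glycans, proteins that carry them and lectins that bind them, and the array also held chemokine, cytokine, adhesion and growth factor genes. The lymph node group and the spleen group both came from wild-type male mice of the inbred strain C57BL/6, 6 to 8 weeks old, and no group received a treatment other than being wild type, per the labels. Which lymph nodes were taken is not in the labels. Nor do they state whether each array held RNA of a different animal. The p-values rest on a spread among arrays of the same tissue, pooled over all 27 arrays, which may be technical and may differ from that of the 6 arrays.

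A lymph node filters lymph, and naive lymphocytes enter it from the blood through high endothelial venules, whose tall endothelial cells carry sulfated, sialylated and fucosylated O-glycans that L-selectin on the lymphocyte binds. The spleen filters blood. It has no high endothelial venules, its red pulp holds macrophages, erythrocytes and platelets, and in the mouse it remains a site of blood formation. Both organs sort T cells and B cells into separate zones by chemokines that stromal cells make, CCL19 and CCL21 for T cells and CXCL13 for B cells. Because each sample was a whole organ, more cells of a type and more transcript per cell cannot be told apart in any result below.

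The 6 arrays had closely similar medians over all probe sets, from 224.7 to 237.1 intensity units. Across the 573 genes, log2 intensities correlated with r of 0.965 to 0.986 between arrays of the same organ and of 0.882 to 0.914 between a lymph node array and a spleen array; genes are not independent replicates. Human probe sets on the same arrays gave a rough measure of signal from non-matching sequence, with a median of 196.9 and a 95th percentile of 601.5 over the 6 arrays, against a median of 317.8 for the mouse genes. Where either organ's level lies in that range, a fold compares signals and cannot be read as an exact transcript ratio. Values are deposited intensities on a linear scale, differences are log2 intensity in lymph node minus spleen with the SE of the limma fit, and p-values are adjusted by Benjamini-Hochberg over all 573 genes. Levels are compared between organs for the same gene and not between genes.

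A gene was called when its adjusted p was under 0.05 and the organs differed by at least 1 on the log2 scale, that is 2-fold. On this rule 24 of 573 genes (4.19%) were called, 14 higher in lymph node (2.44%) and 10 lower in lymph node (1.75%). In all 24 the 3 lymph node arrays did not overlap the 3 spleen arrays. These genes were picked on the same arrays, so this is no separate support. Over all genes the lymph node arrays lay wholly above the spleen arrays in 99 genes (17.3%) and wholly below them in 85 (14.8%). The median difference of all genes was 0.0043 and the median SE was 0.136. Conversely, 518 genes (90.4%) had a 95% confidence interval of the difference that lay inside -1 to 1, so that a 2-fold difference in either direction was outside the interval. With the adjusted p alone and no minimum size, 45 genes were higher in lymph node (7.85%) and 38 lower (6.63%). Genes that passed only in this sense are given below as passing on adjusted p alone. Counts in the gene lists below are to be read against these shares of all genes. The genes called higher were led by Glycam1, Ccl8 and Cd209b, and those called lower by Reg1, Reg2 and Pf4, as the plot of both organs' means shows.

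**Figure D1:**
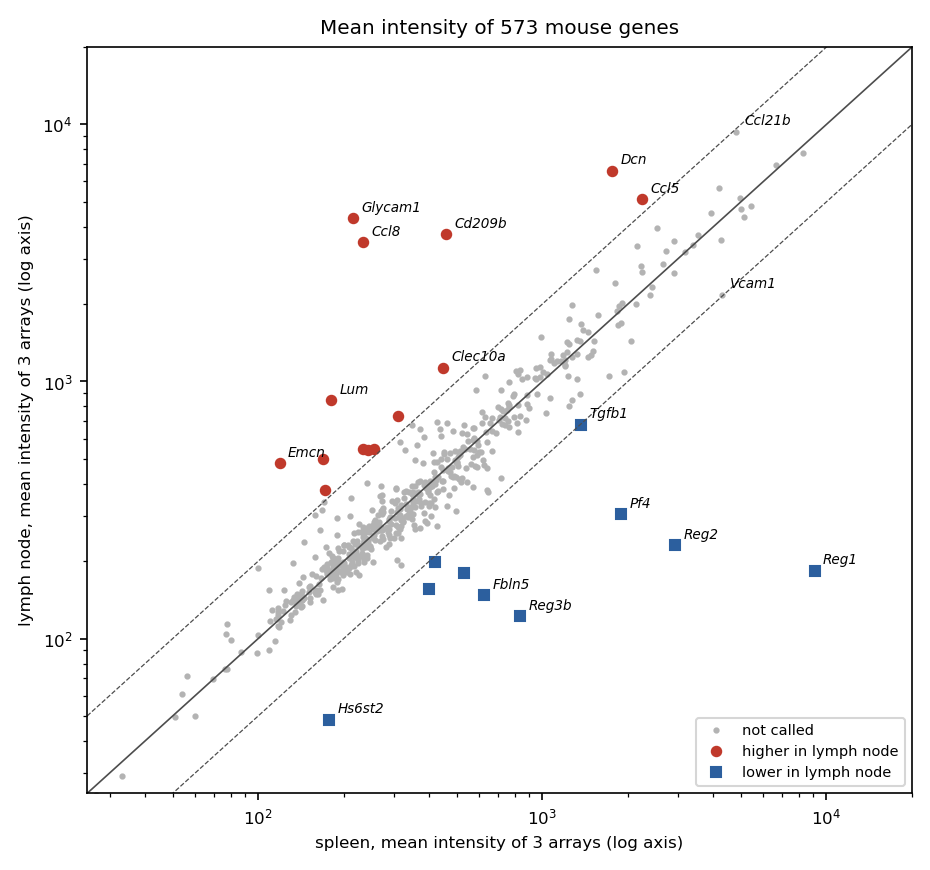
Mean intensity of the 573 mouse genes in lymph node (vertical axis) and spleen (horizontal axis), 3 arrays each, both axes logarithmic. The solid line marks equal means and the dashed lines 2-fold differences; red circles are the 14 genes called higher in lymph node and blue squares the 10 called lower, while most grey points lie between the dashed lines.

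Several called genes lie near each other in the genome. Ccl8, Ccl12 and Ccl7 belong to 1 run of CC chemokine genes on chromosome 11, with all of them higher in lymph node, and Reg1, Reg2 and Reg3b belong to 1 run of Reg genes on chromosome 6, with all of them lower in lymph node. The 250 bases before the start of 5 of these genes are shown from RefSeq (GRCm38.p6), since these called neighbours differed in the same direction within each group. Ccl7 had no entry among the promoters used and is not shown. Cd209b and Cd209e, both called higher in 1 run on chromosome 8, were not among the genes picked for this display. Ccl11 and Ccl1, also in the CC run, were not called. Capitals mark TATAAA, the core of a TATA box, and, in Reg1 alone, a match to TGANTCA, an AP-1 motif. Both were searched on both strands.
Ccl8: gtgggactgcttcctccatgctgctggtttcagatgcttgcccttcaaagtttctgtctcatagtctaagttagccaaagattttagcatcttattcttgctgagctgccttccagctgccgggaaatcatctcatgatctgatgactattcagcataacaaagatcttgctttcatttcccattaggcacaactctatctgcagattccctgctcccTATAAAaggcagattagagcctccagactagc
Ccl12: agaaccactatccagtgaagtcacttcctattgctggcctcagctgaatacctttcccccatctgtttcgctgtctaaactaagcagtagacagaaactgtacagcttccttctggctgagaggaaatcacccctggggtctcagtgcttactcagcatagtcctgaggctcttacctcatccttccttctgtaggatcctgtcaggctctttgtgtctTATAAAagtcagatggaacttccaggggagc
Reg1: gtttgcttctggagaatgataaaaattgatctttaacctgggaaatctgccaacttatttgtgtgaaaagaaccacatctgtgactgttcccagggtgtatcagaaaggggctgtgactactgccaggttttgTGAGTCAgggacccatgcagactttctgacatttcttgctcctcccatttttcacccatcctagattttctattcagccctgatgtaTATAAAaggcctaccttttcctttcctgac
Reg2: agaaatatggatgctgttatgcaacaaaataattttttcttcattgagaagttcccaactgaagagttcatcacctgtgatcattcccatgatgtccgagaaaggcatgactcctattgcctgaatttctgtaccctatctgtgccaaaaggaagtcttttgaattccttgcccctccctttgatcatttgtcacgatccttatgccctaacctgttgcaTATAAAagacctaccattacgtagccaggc
Reg3b: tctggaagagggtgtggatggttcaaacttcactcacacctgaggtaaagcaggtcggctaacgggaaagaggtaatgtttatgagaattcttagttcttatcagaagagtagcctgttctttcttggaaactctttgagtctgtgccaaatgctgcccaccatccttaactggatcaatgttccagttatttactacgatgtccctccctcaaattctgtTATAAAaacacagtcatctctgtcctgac
All 5 lie on the plus strand, at chr11:82114935-82115184 for Ccl8, chr11:82101595-82101844 for Ccl12, chr6:78425733-78425982 for Reg1, chr6:78404905-78405154 for Reg2 and chr6:78370635-78370884 for Reg3b. A TATAAA match began 32 bases before the start in Ccl8, 31 in Ccl12, 30 in Reg1 and in Reg2, and 29 in Reg3b. Of 32851 such windows, 12.4% held TATAAA on either strand and 6.75% held TGANTCA. The TGAGTCA of Reg1 began 117 bases before the start and did not overlap the TATAAA. A match is a description of the letters only.

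The gene with the largest difference towards lymph node was Glycam1, a secreted mucin-like glycoprotein of high endothelial venules that carries L-selectin ligands. Its intensity was 4638, 4218 and 4063 in the lymph node arrays, against 205, 228 and 214 in the spleen arrays. The spleen values lay at the level of the human probe sets, and every lymph node array stood far above every spleen array. The difference was 4.32 ± 0.14 (19.96-fold, adjusted p = 2.43e-17). Among the 9 tissues lymph node was highest, and the next tissue, testis, averaged 313.4.

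Glycam1 was the only called gene among the 8 measured markers of high endothelial venules, against 4.19% of all genes. The median difference of these markers was 0.37 against 0.0043 over all genes. Chst4, the sulfotransferase that adds the 6-sulfate of the L-selectin ligand in these vessels, had 337, 298 and 275 in lymph node, against 162, 151 and 162 in spleen. The arrays did not overlap, and the difference of 0.93 ± 0.17 (adjusted p = 0.000314) lay just under the size threshold, which it passed without lymph node replicate 3 (1.002). Fut7, the fucosyltransferase that completes sialyl Lewis x, had 383, 386 and 405 in lymph node, against 304, 251 and 256 in spleen, a difference of 0.54 ± 0.12 (adjusted p = 0.00243). Madcam1, the vascular addressin that binds the integrin alpha4beta7, had 350.0 ± 3.6 in lymph node and 416.4 ± 37.3 in spleen (SD, n = 3 each), a difference of -0.25 ± 0.10 that did not pass (adjusted p = 0.0969). Chst2, a second sulfotransferase of the ligand, differed by 0.09, with a 95% interval of -0.17 to 0.35. The marker list thus held Glycam1 at 19.96-fold, 3 genes that passed on adjusted p alone with smaller differences (Ccl21b, Chst4 and Fut7), and 4 that did not pass (Sele, Chst2, Selp and Madcam1).

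Of the 14 measured genes for assembly of L-selectin ligands, 2 were called higher in lymph node, Glycam1 and Emcn, and none lower. Over all genes these shares were 2.44% and 1.75%. Emcn encodes endomucin, a sialomucin of venous and capillary endothelium that can carry L-selectin ligand. It had 461, 502 and 478 in lymph node, against 116, 121 and 120 in spleen. Its difference was 2.01 ± 0.17 (4.03-fold, adjusted p = 3.5e-09), and the organs were separated by a gap many times the spread within each; lung and kidney were higher than both organs, with 1199 in lung. Cd34, a sialomucin of endothelium and of blood-forming precursors, had 305, 360 and 288 in lymph node, against 172, 164 and 168 in spleen, a difference of 0.91 ± 0.18 (adjusted p = 0.000597). In contrast to these scaffold proteins, Gcnt1, which starts the core 2 branch on O-glycans, had 363, 402 and 351 in lymph node, against 541, 586 and 805 in spleen. Its difference of -0.77 ± 0.13 (adjusted p = 6.9e-05) also passed on adjusted p alone, but a second, dim probe set of Gcnt1 differed by 0.04, at 99.4 in lymph node and 95.9 in spleen. The other members did not pass: St3gal6 differed by 0.36, Fut4 by 0.20, St3gal4 by -0.02, B3gnt3 by -0.03, C1galt1 by -0.10 and B4galt1 by -0.11, all 6 with 95% intervals inside -1 to 1. The median of the list was 0.14.

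No selectin was called. Selp (P-selectin) differed by -0.14 and Sele (E-selectin) by 0.19, with 95% intervals of -0.34 to 0.05 and -0.03 to 0.42. Selplg, the P-selectin ligand of leukocytes, had 3813, 4244 and 3807 in lymph node, against 2873, 2379 and 2362 in spleen. Its arrays did not overlap, and the difference of 0.64 ± 0.16 (adjusted p = 0.00516) was under the size threshold.

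The CC chemokines held the next largest difference. Ccl8 had 2152, 4011 and 4270 in lymph node, against 222, 219 and 260 in spleen. Lymph node replicate 1 was dimmer than the other lymph node arrays, but still far above all spleen arrays. The difference was 3.84 ± 0.18 (14.3-fold, adjusted p = 2.53e-14), and the highest mean in any other tissue was 384.5 in thymus. Ccl12, a ligand of CCR2, had 453, 567 and 474 in lymph node, against 161, 193 and 156 in spleen, a difference of 1.55 ± 0.11 (adjusted p = 4.33e-11). Ccl7, a further CCR2 ligand, had 409, 887 and 328 in lymph node, against 222, 255 and 257 in spleen. The value of Ccl7 rested on lymph node replicate 2: the difference was 1.01 ± 0.20 with it (adjusted p = 0.000677) and 0.59 without it, which was not called; it was 0.94, also not called, without spleen replicate 1. Along the run on chromosome 11 the measured genes in order were Ccl7, Ccl11, Ccl12, Ccl8 and Ccl1. Ccl11 (eotaxin) differed by 0.53 (adjusted p = 0.00685) and Ccl1 by -0.30, neither of them called, so that the difference was not shared by the whole run.

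Ccl5 (RANTES), made by activated T cells and NK cells, had 5076, 5137 and 5194 in lymph node, against 2239, 2610 and 1905 in spleen. It was highest in these organs among the 9 tissues, and the difference was 1.20 ± 0.20 (2.30-fold, adjusted p = 9.35e-05). In its run on chromosome 11, Ccl9 differed by 0.70, Ccl3 by -0.11 and Ccl4 by 0.08, none of them called. Of all 23 inflammatory chemokines measured, 4 were called higher in lymph node (Ccl8, Ccl12, Ccl5 and Ccl7) and 1 lower (Pf4). Over all genes 2.44% were called higher and 1.75% lower, and the median of the list was 0.15. Cxcl9, an interferon-induced ligand of CXCR3, had 874, 1012 and 1259 in lymph node, against 555, 806 and 522 in spleen, a difference of 0.75 ± 0.17 that passed on adjusted p alone (adjusted p = 0.0018). Cxcl10 and Cxcl11, the other ligands of that receptor, differed by 0.15 and -0.21 and did not pass. Cxcl1 differed by 0.73 ± 0.27 (adjusted p = 0.0741), with 634 in lymph node replicate 2 beside 229 and 154 in the other lymph node arrays, and it was called at 1.17 without lymph node replicate 3.

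Of 11 homeostatic chemokines and receptors measured, which place lymphocytes in their zones, 0 were called. On adjusted p alone 4 were higher and 1 lower in lymph node, against 7.85% and 6.63% of all genes. Their median was 0.29 and their range -0.35 to 0.97. The lymph node arrays lay wholly above those of spleen in 5 and wholly below in 1, against 17.3% and 14.8% of all genes. Ccl21b, a T zone chemokine with near-identical copies in the mouse genome that this probe set may also detect, had 10601, 8909 and 8623 in lymph node, against 5919, 4014 and 4531 in spleen. The arrays did not overlap, and the difference of 0.97 ± 0.15 (adjusted p = 5.29e-05) lay just under the size threshold; it was called without lymph node replicate 2 (1.01), lymph node replicate 3 (1.03) or spleen replicate 1 (1.13). Ccr7, its receptor on naive T cells and mature dendritic cells, had 1855, 2201 and 1903 in lymph node, against 1355, 1261 and 1214 in spleen, a difference of 0.63 ± 0.13 (adjusted p = 0.000931). Cxcl13, the follicular chemokine, was bright in both organs, with 3523 ± 199 in lymph node and 2905 ± 413 in spleen (SD, n = 3 each). It differed by 0.29, with a 95% interval of -0.03 to 0.60, while the highest mean in the other 7 tissues was 158.0. Its receptor Cxcr5, on B cells, had 452, 474 and 468 in lymph node, against 611, 575 and 587 in spleen, a difference of -0.35 ± 0.11 (adjusted p = 0.0257). So the ligand and receptor of the T zone pair were both brighter in lymph node on adjusted p alone, and the receptor of the follicular pair was dimmer there by the same test. Cxcl12 differed by -0.25, Ccr10 by -0.07, Ccl27a by 0.03, Ccl25 by 0.17 and Ccr9 by 0.38, none of which passed. Ccl20 and its receptor Ccr6 differed by 0.42 (adjusted p = 0.00727) and 0.49 (adjusted p = 0.0115).

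Of 15 chemokine receptors measured, 2 were called higher in lymph node and none lower, against 2.44% and 1.75% of all genes. The median of the list was 0.10. Cxcr6, the receptor of CXCL16 on T cells and NKT cells, had 495, 532 and 608 in lymph node, against 257, 246 and 199.9 in spleen, a difference of 1.22 ± 0.17 (adjusted p = 1.03e-05). Ccr2, the receptor for the CCL7 and CCL12 proteins on monocytes, had 392.3, 697 and 552 in lymph node, against 272, 273 and 223 in spleen. Its difference was 1.06 ± 0.25 (adjusted p = 0.00304), close to the size threshold, and was not called without lymph node replicate 2 (0.87) or spleen replicate 3 (0.97). Bone marrow was the brightest tissue for Ccr2, with 1360.

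**Figure D2:**
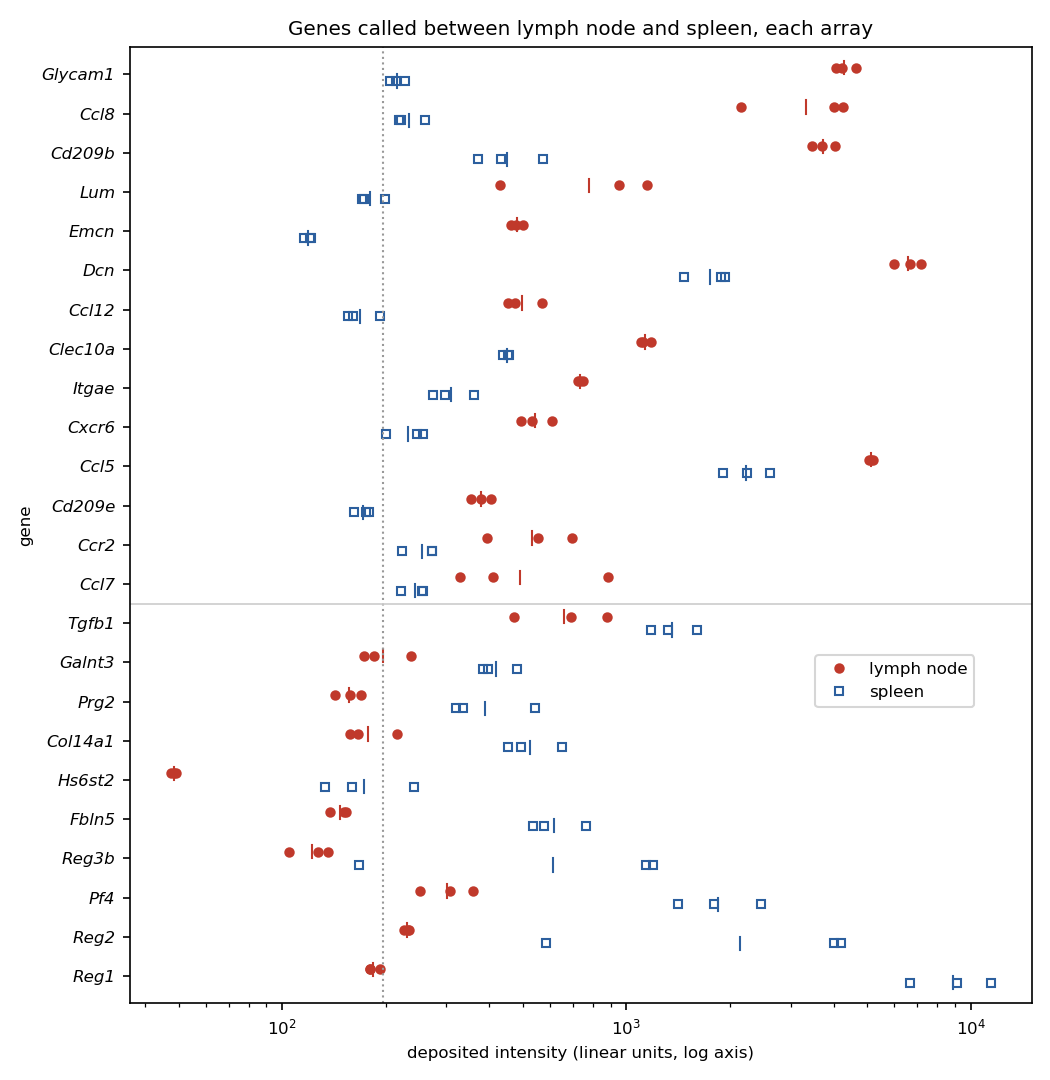
Deposited intensity (log axis) of the 24 called genes in each array, lymph node as filled red circles above spleen as open blue squares, with a short line at each geometric mean; genes run from the largest difference towards lymph node at the top to the largest towards spleen at the bottom. The dotted line marks 196.9, the median of the human probe sets; the 2 organs do not overlap in any row, and spleen replicate 1 lies apart from the other spleen arrays for Reg2 and Reg3b.

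C-type lectins bind sugars in a calcium-dependent way or share that fold, and many serve as pathogen receptors of macrophages and dendritic cells. Of 29 measured, 3 were called higher in lymph node, Cd209b, Clec10a and Cd209e, and none lower. Over all genes 2.44% were called higher and 1.75% lower, and the median of the 29 was 0.12. Cd209b encodes SIGN-R1, a receptor for dextran and microbial polysaccharides on marginal zone macrophages of the spleen and on macrophages of the lymph node medulla. It had 3471, 4045 and 3713 in lymph node, against 573, 432 and 370 in spleen. Every other tissue averaged at most 208.3, so that these organs were the brightest pair, and lymph node exceeded spleen by 3.05 ± 0.14 (8.28-fold, adjusted p = 1.86e-14). Clec10a, a galactose-type lectin of macrophages and dendritic cells, had 1115, 1181 and 1101 in lymph node, against 456, 437 and 452 in spleen. The difference was 1.34 ± 0.11 (adjusted p = 7.68e-10).

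The members of the Cd209 family, which form 1 run on chromosome 8, did not differ alike. Cd209e had 379, 354 and 403 in lymph node, against 162, 179 and 175 in spleen, a difference of 1.14 ± 0.11 (adjusted p = 1.12e-08). Cd209d had 740.1, 606 and 613 in lymph node, against 387, 381 and 343 in spleen, a difference of 0.81 ± 0.09 (adjusted p = 2.61e-07) that passed on adjusted p alone. Cd209a, the receptor of dendritic cells in this family, differed by 0.14, with a 95% interval of -0.09 to 0.37, and Cd209c by 0.23, with an interval of -0.07 to 0.53. Probe sets of related genes can share sequence, and the signal of each was taken as deposited. Mrc1, the mannose receptor of macrophages, differed by -0.62 with an interval of -1.22 to -0.03 and did not pass after adjustment. Clec4a2 differed by -0.86 with a wide interval of -1.73 to 0.00.

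Connective tissue genes went both ways. Dcn, the collagen-binding proteoglycan decorin, had 6004, 6675 and 7164 in lymph node, against 1936, 1468 and 1881 in spleen, a difference of 1.92 ± 0.21 (3.77-fold, adjusted p = 2.12e-07). Lum, the related keratan sulfate proteoglycan lumican, had 430.4, 951 and 1149 in lymph node, against 199, 173 and 171 in spleen. Lymph node replicate 1 was again the lowest lymph node array, and the difference was 2.11 ± 0.30 (4.31-fold, adjusted p = 1.17e-05). These were the only called genes among 22 proteoglycan core proteins, against 4.19% of all genes, and the list had a median of 0.03. Bgn (biglycan), a close relative of decorin, differed by -0.13 with an interval of -0.55 to 0.28, Fmod (fibromodulin) by 0.41, and Vcan (versican) by 0.00. Srgn, the serglycin core of granules in blood cells, differed by 0.07.

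The matrix genes brighter in spleen were Fbln5 and Col14a1. Fbln5, the elastic fibre protein fibulin-5, had 154, 138 and 151 in lymph node, against 762, 575 and 534 in spleen. The lymph node values lay below the median of the human probe sets, and the difference was -2.06 ± 0.19 (adjusted p = 9.49e-09). Col14a1, a collagen that associates with fibril surfaces, had 157, 166 and 216 in lymph node, against 649, 454 and 493 in spleen, a difference of -1.56 ± 0.17 (adjusted p = 1.18e-07). Vcam1, the ligand of integrin alpha4beta1 on stroma and macrophages, had 2120, 2371 and 2043 in lymph node, against 4711, 3862 and 4259 in spleen. It had no overlap and a difference of -0.97 ± 0.19 (adjusted p = 0.00042), just under the size threshold, and was called without lymph node replicate 2 (-1.03) or spleen replicate 2 (-1.04). Over the 9 measured markers of fibroblasts and stromal cells, 2 were called higher in lymph node and 1 lower, with a median of 0.06. Over all genes 2.44% were called higher and 1.75% lower.

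Endothelial markers also differed unequally. Of 7 measured, 1 was called, Emcn, against 4.19% of all genes, and the list had a median of 0.22. Pecam1, the junction molecule CD31, had 674, 611 and 466 in lymph node, against 370, 289 and 285 in spleen, a difference of 0.89 ± 0.16 (adjusted p = 0.000282). It was called without lymph node replicate 3 (1.04) or spleen replicate 1 (1.01). Thbd (thrombomodulin) differed by -0.49 ± 0.14 (adjusted p = 0.0139), while Icam2, Tek and Acvrl1 differed by 0.20, 0.10 and 0.22 and did not pass. The summed intensity of the 7 markers was 3913, 3817 and 3540 in the lymph node arrays and 3221, 2764 and 2611 in the spleen arrays.

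**Figure D3:**
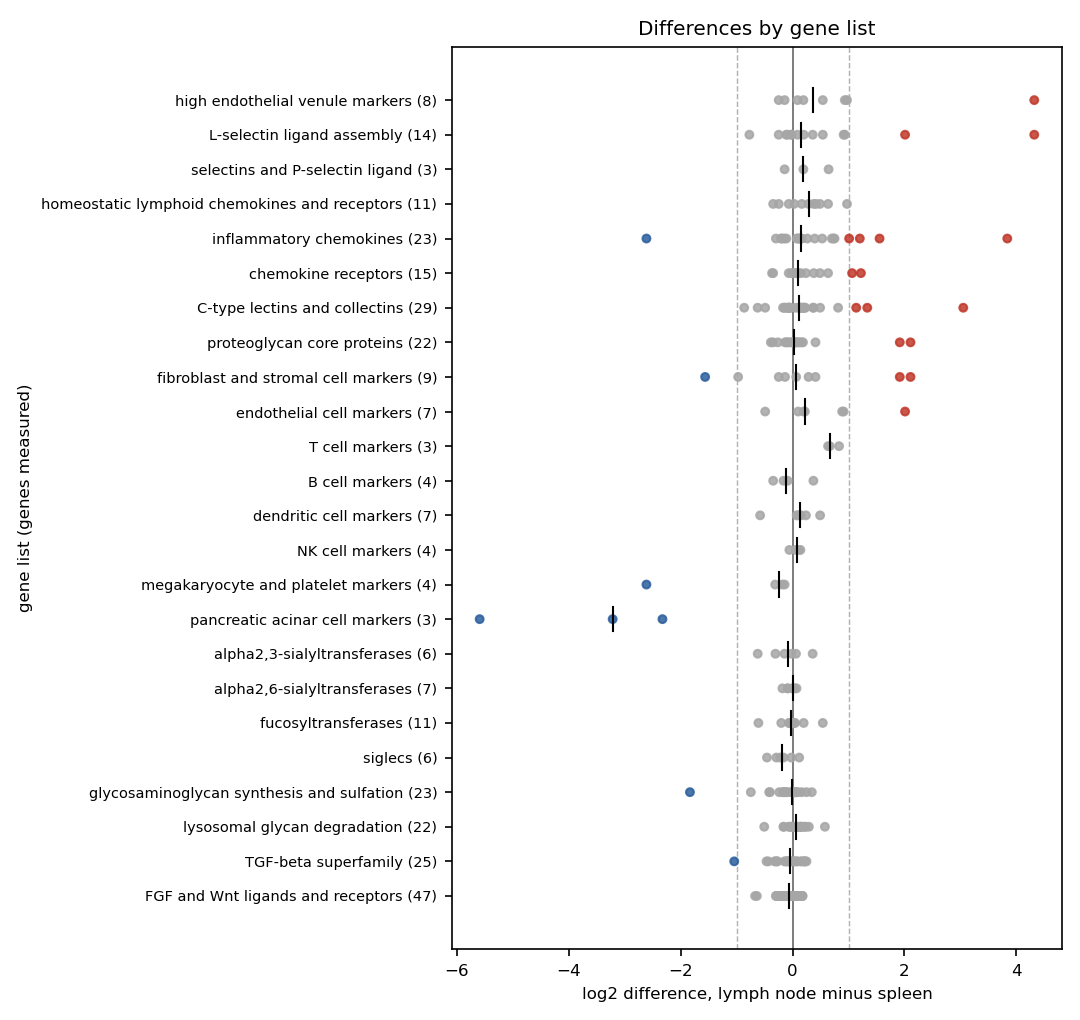
Log2 difference, lymph node minus spleen, of each measured gene in 24 lists (rows, with the number of genes measured), red where called higher, blue where called lower and grey otherwise; black ticks are list medians and dashed lines mark -1 and 1. The 3 pancreatic acinar markers, all called lower, have a median of -3.21, and the 3 T cell markers, none called, a median of 0.66.

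Among leukocyte markers few genes were called, and all marker levels were those of whole tissue. The 3 measured T cell markers all passed on adjusted p but were not called: Il7r, the receptor for interleukin 7, differed by 0.83 ± 0.14 (adjusted p = 0.000132), Cd27 by 0.66 ± 0.17 (adjusted p = 0.00654) and Ccr7 by the 0.63 given above. Their summed intensity was 5828, 6031 and 5026 in the lymph node arrays, against 3754, 2997 and 3447 in the spleen arrays, with no overlap. The 4 B cell markers had a summed intensity of 8981, 8054 and 8387 in lymph node, against 8593, 8450 and 8864 in spleen, which overlapped. Most of that sum was Cd22, whose probe set was about as bright in brain (4318) and lung (4873), which are not lymphoid organs. Fcer2a, the low-affinity IgE receptor CD23, averaged 2805 in lymph node and 2227 in spleen and at most 513 elsewhere, in bone marrow. Beside Cxcr5, the differences were -0.16 for Cd22, -0.09 for Cd72 and 0.37 for Fcer2a, none of which passed. The 4 NK cell markers had a median of 0.09 and the 7 dendritic cell markers a median of 0.14, and 0 of them were called. Itgax, the CD11c integrin of dendritic cells, had 841, 868 and 836 in lymph node, against 1405, 1205 and 1201 in spleen, a difference of -0.58 ± 0.10 (adjusted p = 8.06e-05). Of 5 macrophage and monocyte markers, 2 were called higher in lymph node, Cd209b and Ccr2, against 2.44% of all genes. Clec7a differed by 0.11, Siglec1 by -0.02 and Mrc1, as above, by -0.62, none of which passed.

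Itgae encodes the alphaE chain of the integrin that binds E-cadherin and sits on intraepithelial T cells and some dendritic cells. It was the only called gene among 16 integrin subunits, against 4.19% of all genes. It had 723, 748 and 735 in lymph node, against 361, 274 and 297 in spleen, a difference of 1.25 ± 0.16 (2.38-fold, adjusted p = 2.07e-06). Testis was the brightest tissue for this probe set, with 2744. Its partner Itgb7 differed by 0.29 and Itgal, the alpha chain of LFA-1, by 0.49, and neither passed.

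Cytokine genes gave 1 call, Tgfb1, among the 25 genes of the TGF-beta superfamily. None was called among 22 interleukins and interferons, 24 cytokine receptors, 25 genes of the TNF superfamily and costimulation, and 47 FGF and Wnt genes. Over all genes 4.19% were called, and at that share lists of this size would hold few calls. Tgfb1, which encodes a regulator of T cell and stromal growth, had 878, 689 and 472 in lymph node, against 1177, 1606 and 1318 in spleen. The organs did not overlap, and the difference was -1.04 ± 0.26 (adjusted p = 0.00649); it was not called without lymph node replicate 3 (-0.80), without spleen replicate 2 (-0.92) or with spleen replicates 2 and 3 both left out (-0.84). Its receptor chain Tgfbr1 differed by -0.43. Among receptors, Osmr, the oncostatin M receptor, differed by 0.96 ± 0.17 (adjusted p = 0.000128), and Il10ra, the interleukin 10 receptor, by -0.71 ± 0.14 (adjusted p = 0.000428). Il15, a survival factor of memory T cells and NK cells, differed by 0.72 ± 0.19, and Tnfsf11 (RANKL), which acts in lymph node formation, by 0.68 ± 0.13. Each passed on adjusted p alone, and Osmr was called at 1.02 without lymph node replicate 3.

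Most lists of glycosyltransferases held no called gene. None of 6 alpha2,3-sialyltransferases, 7 alpha2,6-sialyltransferases, 5 alpha2,8-sialyltransferases, 11 fucosyltransferases, 7 N-glycan branching genes, 12 poly-N-acetyllactosamine enzymes and 15 glycosphingolipid genes was called, against 4.19% of all genes, and all of them had 95% intervals inside -1 to 1, against 90.4% of all genes. The lists are small and share members, and the exception among glycosyltransferases, Galnt3, is described below. St6gal1, which makes the alpha2,6-sialyl ligand of CD22, differed by 0.00 with an interval of -0.29 to 0.29, at 890.0 ± 94.3 in lymph node and 886.4 ± 39.6 in spleen (SD, n = 3 each). St3gal5, the GM3 synthase, differed by -0.62 ± 0.11 (adjusted p = 0.000173) and Fut1 by -0.61 ± 0.13 (adjusted p = 0.00113), both on adjusted p alone. B3gnt4 and B4galt3 differed by -0.55 and -0.31 on the same terms. In sialic acid metabolism, Cmas, which activates sialic acid as its CMP form, had 1064, 1138 and 1056 in lymph node, against 2191, 1455 and 2155 in spleen, a difference of -0.81 ± 0.19 (adjusted p = 0.00412), which was called at -1.001 without spleen replicate 2. Cmah, the hydroxylase that makes N-glycolylneuraminic acid from it, had 563, 635 and 499 in lymph node, against 454, 294 and 338 in spleen, a difference of 0.66 ± 0.16 (adjusted p = 0.00402). Neither of these was called, but within each gene the organs did not overlap. The 6 siglecs, the sialic acid receptors, had a median of -0.19 and the 4 galectins a median of -0.06, with 0 called.

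The called genes of glycan synthesis were Galnt3 and Hs6st2, both lower in lymph node. Galnt3, which starts mucin-type O-glycans, had 173, 185 and 237 in lymph node, against 397, 482 and 383 in spleen. It was the only called gene among 11 of O-glycan initiation and cores, against 4.19% of all genes. Its difference was -1.09 ± 0.17 (adjusted p = 3.69e-05). It was not called without lymph node replicate 1 (-0.998) and without spleen replicate 2 (-0.988). Hs6st2, a heparan sulfate 6-O-sulfotransferase, had 49.1, 48.5 and 47.5 in lymph node, against 241, 133 and 159 in spleen. All 6 values of Hs6st2 lay within the range of the human probe sets, under their 95th percentile of 601.5, and the difference was -1.83 ± 0.17 (adjusted p = 1.12e-08). It was the only call among 23 genes of glycosaminoglycan synthesis, against 4.19% of all genes, and the list had a median of -0.02. Hs6st1, the related 6-O-sulfotransferase, had 394, 390.0 and 355 in lymph node, against 547, 735 and 641 in spleen, a difference of -0.75 ± 0.14 in the same direction (adjusted p = 0.00047). Hs6st3 differed by -0.12.

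The remaining genes called lower in lymph node were Pf4, Prg2 and the Reg genes. Pf4, platelet factor 4, a chemokine stored in platelet granules, had 251, 306 and 358 in lymph node, against 2468, 1800.0 and 1412 in spleen, with bone marrow next at 824.6. The difference was -2.61 ± 0.20 (adjusted p = 4.54e-10), and no array of either organ came near the other's range. It was the only called gene among 4 megakaryocyte and platelet markers, against 4.19% of all genes. Itga2b and Itgb3, the subunits of the platelet fibrinogen receptor, differed by -0.31 and -0.19, and Selp by -0.14, all without passing. Prg2, the eosinophil major basic protein, had 143, 170 and 157 in lymph node, against 335, 544 and 320 in spleen, a difference of -1.31 ± 0.17 (adjusted p = 1.81e-06). Epor, the erythropoietin receptor of red cell precursors and the only erythroid marker measured, differed by -0.33 ± 0.10 and passed on adjusted p alone.

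Reg1 had the largest difference of all 573 genes. The Reg genes encode secreted proteins of the C-type lectin fold, abundant in pancreatic acinar cells and, for Reg3b, also in gut epithelium. Reg1 had 179, 180 and 193 in lymph node, against 6658, 9125 and 11464 in spleen, and the difference was -5.59 ± 0.38 (adjusted p = 4.33e-11). Among the other tissues kidney was the brightest, with 469.4. Reg2 had 226, 233 and 233 in lymph node, against 583, 4194 and 4009 in spleen, a difference of -3.21 ± 0.40 (adjusted p = 1.78e-06). Reg3b had 136, 127 and 105 in lymph node, against 167, 1197 and 1138 in spleen, a difference of -2.32 ± 0.41 (adjusted p = 0.000184). For these genes the 3 spleen arrays differed among themselves far more than the lymph node arrays did: Reg2 and Reg3b were high in replicates 2 and 3 and much lower in replicate 1. Without spleen replicate 1 the difference was -4.15 for Reg2 and -3.26 for Reg3b.

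The 3 Reg genes were also the only measured members of 10 listed markers of pancreatic acinar cells, and none of the digestive enzymes on that list was compared here. Their summed intensity was 541, 540 and 530 in the lymph node arrays and 7408, 14516 and 16611 in the spleen arrays. Whether other tissue contributed to the spleen samples was not tested. With spleen replicates 2 and 3 left out, an alternative chosen after seeing the data, the spleen arm is a single array whose spread is taken from the other groups. That array, spleen replicate 1, is the one with the sum of 7408, so this setting did not remove the Reg signal. The difference was then -5.18 for Reg1 and -1.34 for Reg2, both still called, and -0.45 for Reg3b, which was no longer called. Without those arrays Pf4 differed by -3.03, Fbln5 by -2.37, Hs6st2 by -2.32 and Col14a1 by -1.87, each as large as or larger than with them. Tgfb1, Prg2 and Galnt3 differed by less without those arrays than with them, Tgfb1 by -0.84 against -1.04. Ugt2b5, a UDP-glucuronosyltransferase that was brightest in liver, separated the spleen arrays the other way, with 222, 186 and 171 in lymph node and 696, 136 and 124 in spleen; it was not called (-0.25), but was at -1.86 with spleen replicates 2 and 3 left out.

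In the remaining 7 tissues most of these genes were dimmer. Lymph node had the highest mean of the 9 tissues for 11 of the 14 genes called higher in it, the exceptions being Emcn, Itgae and Ccr2. Spleen had the highest mean for 8 of the 10 genes called lower in lymph node; Fbln5 was highest in kidney, with 1055, and Galnt3 in testis, with 1915. Ccr2 in bone marrow, at 1360, lay above both organs.

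**Figure D4:**
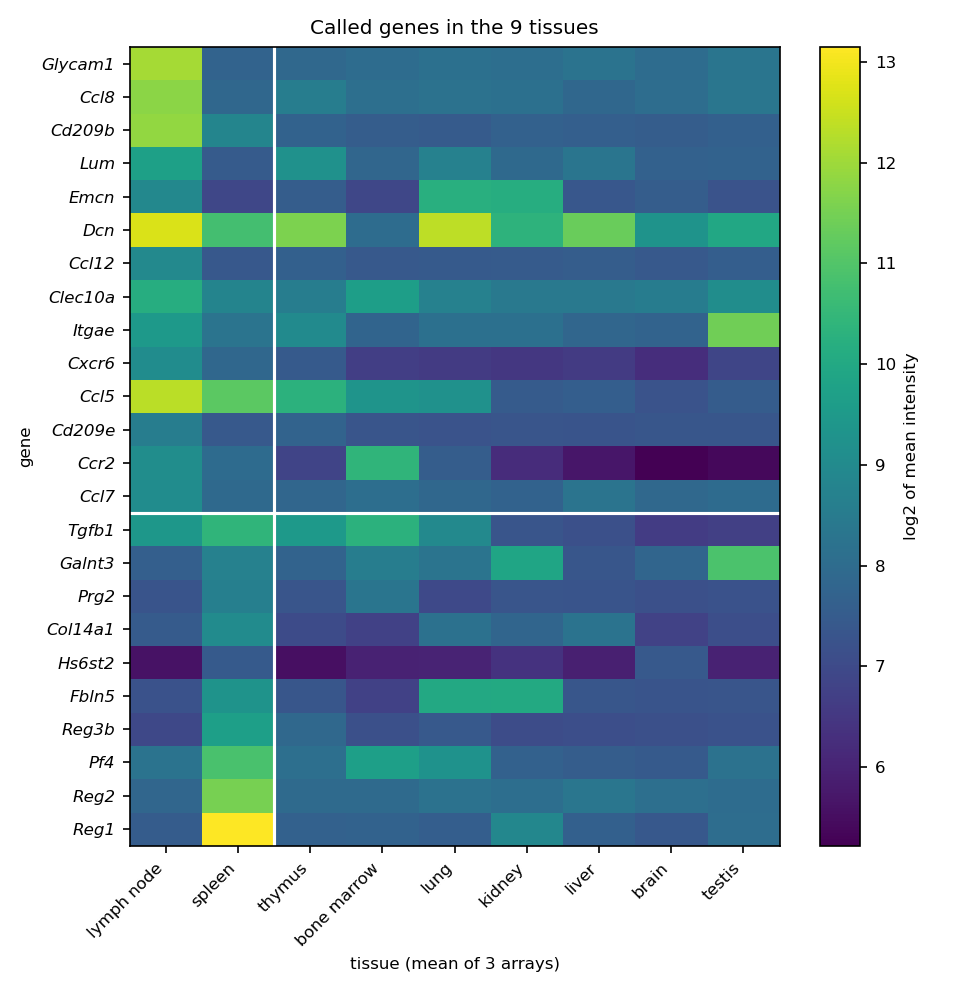
Log2 of mean intensity (3 arrays per tissue) of the 24 called genes in the 9 tissues, genes called higher in lymph node above the white horizontal line and genes called lower below it. Lymph node is the brightest column for 11 of 14 genes in the upper block and spleen for 8 of 10 in the lower block.

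Among bright genes, the organs differed by less than 2-fold, over the whole 95% interval, for the 8 given here. Cd74, the invariant chain of antigen presentation, had 7716 ± 813 in lymph node and 8265 ± 1202 in spleen (SD, n = 3 each), a difference of -0.09 with a 95% interval of -0.51 to 0.32. Tmsb10, an actin-binding thymosin, differed by 0.07 with an interval of -0.30 to 0.45, and Srgn by the 0.07 given above with an interval of -0.38 to 0.51. Cd22, the B cell siglec, had an interval of -0.58 to 0.26, but its probe set was also bright in brain (4318) and lung (4873). Cxcl12 had an interval of -0.67 to 0.17, Ybx1 one of -0.70 to 0.50 and Lamp1 one of -0.32 to 0.71. Ltb, lymphotoxin beta, which drives lymphoid organ formation, had 6250.2, 5432 and 5223 in lymph node, against 4983, 3973 and 3641 in spleen, with a difference of 0.43 and an interval of 0.11 to 0.76. These 8 genes were picked for bright probe sets among those with an interval inside -1 to 1, which ranks signal and not transcript number, and a difference under 2-fold remains possible for each.

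Genes with more than 1 probe set had a further reading. The called genes had 9 further mouse probe sets, and all 9 differed in the same direction as the chosen ones. Glycam1 differed by 2.67 in its other probe set, Ccl12 by 2.55, Dcn by 2.48, Lum by 1.95, Reg2 by -2.95 and Reg3b by -2.06. The other probe set of Ccl5 differed by 0.52 and that of Ccr2 by 0.89, both less than 1. The other probe set of Pf4 was dim in both organs, at 60.8 in lymph node and 65.6 in spleen, and differed by -0.10. Among genes that passed on adjusted p alone, the other probe set differed by 1.04 for Osmr, 0.89 for Cd27, -0.93 for Vcam1, -0.76 for Itgax, -0.54 for Epor, -0.24 for Il10ra and 0.04 for Gcnt1. St6gal1, which did not pass, differed by 0.45 and -0.01 in 2 others. These values are given without a test.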

How the data were processed

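Total RNA of 9 tissues of wild-type mice was hybridised with a biotin label to a custom Affymetrix array, per the labels. The authors deposited linear intensities of 1813 probe sets on 27 arrays; their summary method, background correction and scaling are not given in the sources used for this work. Names came from the platform annotation (1563 with 1 symbol, 2 with several, 248 with none), with symbols updated through RefSeq. The 702 mouse probe sets gave 573 genes, each represented by its probe set with the highest mean over all arrays; 839 human and 57 control probe sets did not enter the tests. Intensities under 16 were raised to 16 (1 value of these genes in the 6 arrays).

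limma 3.58.1 in R 4.3.3 (lmFit, eBayes) took 1 coefficient per tissue, with all 27 arrays in the model, and the contrast lymph node minus spleen was taken, with Benjamini-Hochberg adjustment over 573 genes. Precision is limited by having 3 arrays per organ. The gene lists, the choice of this pair of organs and the rule for named genes were made with earlier results of these data known. The rule named up to 15 called genes in each direction, which took in all 24, all members of the ligand assembly, selectin and homeostatic chemokine lists, up to 4 called members of other lists and the 8 brightest genes with an interval inside -1 to 1. Genes beyond it that passed on adjusted p alone, or that complete a family, were named after their values were seen. In simulated data for this contrast with 573 genes, 50 of 50 genes changed by 1.5, by 2 and by 3 were called. Of those changed by 0.5, 0 of 50 were called, and of the unchanged 0 of 373. The size threshold of 1 largely fixes these outcomes, and no change near 1 was simulated. Each gene was given 1 spread for all tissues. The simulation therefore does not tell how reliable calls near the threshold are, or calls of genes whose spread differs between tissues.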

Additional observations from a re-analysis of the deposited data

How the results depend on the processing

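Over the alternatives tried (quantile normalization, median centring, a floor of 64, an offset of 16, 2 filters on dim genes, averaging probe sets per gene, the 6 arrays alone, a robust trend in eBayes, the title number as a block, array weights, each array left out, and spleen replicates 2 and 3 left out), no call among the 57 genes named by the rule reversed direction. A change of sign in a gene called in neither fit was not counted as a reversal. Of the values of the 57 genes, 976 kept their side of the threshold, with 6 gaining (Ccl21b and Chst4) and 21 losing a call. A further 16 calls were gained by 7 genes outside the rule. The count called higher was 13 to 19 with single arrays left out, the count called lower 9 to 11, and the count with an interval inside -1 to 1 was 510 to 520. With no minimum size, 45 genes passed higher and 38 lower in lymph node. Leaving out the dimmest genes left 382 tested, with 10 called higher and 6 called lower. Of the genes called higher, Ccl12, Ccr2, Cd209e and Cxcr6 were then not tested. Among those called lower, Col14a1, Hs6st2, Prg2 and Reg3b were not tested. No batch is named. Same-numbered arrays deviated with r of 0.12, -0.02 and -0.11 across genes, and differently numbered ones with r from -0.35 to 0.33. With so few arrays, these values cannot show whether equal numbers mark a shared animal or batch, which remains unknown. With the replicate block 14 genes were called higher and 10 lower, all of them shared with the fit without it. In that fit 516 genes had an interval inside -1 to 1. Calls lost under some settings were Ccl7 (0.91 after quantile normalization), Ccr2 (0.94 after quantile normalization, 0.98 with the mean of probe sets), Tgfb1 (-0.86 after quantile normalization), Galnt3 (-0.96 after quantile normalization), Ccl5 (0.86 with the mean of probe sets) and, in the 6 arrays alone, Reg3b and Ccl7. Pf4 was -1.36 with the mean of probe sets. Ccl21b was 1.49 after quantile normalization; the genes outside the rule were Vcam1, Osmr, Pecam1, Cxcl1, Cmas, Ptn and Ugt2b5. With spleen replicates 2 and 3 left out, the lone spleen array is assumed to vary like the other groups. Beyond what is stated here, the cause was not tested. Signal over background limits the dim genes: 4 of the 14 genes called higher had a spleen mean, and 6 of the 10 called lower a lymph node mean, under the human probe set median.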

Other observations

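Several genes outside the families above differed between the organs on adjusted p alone. Ptn, the heparin-binding growth factor pleiotrophin, had 153, 189 and 220.6 in lymph node, against 95.2, 106 and 98.8 in spleen, a difference of 0.89 ± 0.15 (adjusted p = 7.06e-05, limma); brain was its brightest tissue, and it was called at 1.03 without lymph node replicate 1. Fas, the death receptor, differed by 0.73 ± 0.16 and Uap1, which makes UDP-N-acetylglucosamine, by 0.70 ± 0.15. Among FGF and Wnt genes, Wnt2 differed by -0.67 and Fgf22 by -0.64, the lowest of 47 genes whose median was -0.06. Il2rb, a receptor chain for interleukins 2 and 15, differed by 0.51. Glb1, the lysosomal beta-galactosidase, differed by 0.58. It was the only 1 of 22 lysosomal genes to pass, while 7.85% of all genes were higher in lymph node on adjusted p alone.

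Human probe sets with the symbol of a called mouse gene numbered 17. Of these, 9 differed in the direction of the mouse gene and 0 by 1 or more on the log2 scale. The human probe set named for Ccl5 had 140.7 ± 18.8 in lymph node and 261.5 ± 3.5 in spleen (SD, n = 3 each), opposite to the mouse probe set. A second mouse probe set of B3galt2 differed by 1.67, at 156.4 in lymph node and 49.3 in spleen, while the brighter probe set used here differed by 0.20.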
